A study of Mus musculus with 6 samples.

Results

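NRF2, encoded by Nfe2l2, its inhibitor KEAP1 and 8 of the enzymes, transporters and cofactor suppliers that NRF2 switches on were followed in the livers of ErbB4-/- and control mice. The genes were taken by name from the platform annotation, with glutathione S-transferases left out. Of the 10 genes, 9 had a probe set that names exactly 1 gene, out of 22180 genes read in all. G6pdx, the X-linked gene of glucose-6-phosphate dehydrogenase, had none and was not analysed here.

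The controls were 3 wild type C57BL/6J mice. The other group was 3 ErbB4-/- mice, full mutants kept alive by a transgene that overexpresses ErbB4 in the heart and crossed back to C57BL/6J, so the mutation cannot be told apart from the transgene. All 6 mice had been given 1 dose of DEN, in this field the liver carcinogen diethylnitrosamine, at 14 days of age. The protocol puts the dissection of every mouse at 32 weeks, whereas the treatment field gives 32 to 34 weeks for the controls and 35 to 37 weeks for the ErbB4-/- mice. Food was given freely under a 12 h light and 12 h dark cycle. Each liver was read on 1 single-colour whole-transcript array. All values are on a log2 scale, where a difference of 1 is a doubling, and differences are ErbB4-/- minus control. A value can be compared between arrays but not between genes.

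NRF2 is a transcription factor that KEAP1 holds in the cytoplasm and hands to a ubiquitin ligase for breakdown. Oxidants and electrophiles modify cysteines of KEAP1, NRF2 then escapes breakdown, enters the nucleus with a small MAF partner and binds antioxidant response elements. Its targets make glutathione, recycle thioredoxin, reduce quinones, degrade haem and supply NADPH. In liver the pathway protects hepatocytes during drug metabolism, and it is switched on permanently by mutation in a share of liver tumours. Control of NRF2 lies largely at the protein, so the level of its transcript is not a reading of its activity.

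The letters of the element were looked for because NRF2 acts through it. The core TGACNNNGC was searched on both strands of RefSeq promoter windows (assembly GRCm38.p6, 250 bases before to 50 after each start). Windows were held for 8 of the 10 genes, 10 windows in all, with Hmox1 and Gclc not among them. The core was found for 5 of the 8, in Nfe2l2, Gclm, Srxn1, G6pdx and 1 of the 3 windows of Txnrd1. Of all 32851 windows 12.4% hold it, and of all 27025 genes 14.0% have it in at least 1 window. Those of Nfe2l2, Gclm, Txnrd1 and G6pdx lie before the start and are shown from 5′ to 3′ on the strand that carries the core, with the core in capitals.

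Nfe2l2, chr2:75704879-75704913, minus strand: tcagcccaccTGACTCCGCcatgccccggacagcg

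Gclm, chr3:122245407-122245447, minus strand: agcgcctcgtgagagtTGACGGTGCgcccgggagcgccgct

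Txnrd1, chr10:82859098-82859138, minus strand: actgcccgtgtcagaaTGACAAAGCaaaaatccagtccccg

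G6pdx, chrX:74428913-74428953, plus strand: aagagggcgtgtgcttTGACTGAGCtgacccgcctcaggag

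Counted from the start, with negative positions before it, the far end of the core lies at -240 in Nfe2l2, -134 in Gclm, -92 in Txnrd1 and -57 in G6pdx. The match of Srxn1 lies after the start, at bases 29 to 37, and is not shown. Srxn1 also holds the related letters TGANTCA, read alike by AP-1 and by small MAF proteins, at 2 places. TGANTCA was searched on both strands too. It is found in 7.81% of all windows and for 8.97% of all genes, beside 1 of the 8 genes here. A stretch TGACTCA followed by GC would satisfy both searches, and no match of these genes did so. The place in Srxn1 nearer to the start, at bases -45 to -39, is followed by GC. It differs from the core only by G in place of the C after TGA, and the search for the core allowed only C there. The 2 places in Srxn1 are shown next because AP-1 transcripts differ strongly between these arrays, as given further on, with TGANTCA in capitals.

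Srxn1, chr2:152105406-152105444, plus strand: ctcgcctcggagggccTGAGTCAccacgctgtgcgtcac

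Srxn1, chr2:152105463-152105501, plus strand: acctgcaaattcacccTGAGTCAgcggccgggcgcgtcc

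A match is a description of these letters and no evidence of binding, and a window without one says nothing of sites elsewhere.

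Several arrays stood apart. ErbB4-/- replicate 3 lay farthest out on the first principal component, which carried 36.1% of the variance, and had the lowest array weight, 0.46 against at least 0.91 for the others. In control replicate 1 the male-biased liver genes were low, with a list mean of 6.97 against 10.76 to 11.33 on the other 5 arrays. The female-biased liver genes, 3 measured, were high there, with a list mean of 8.69 against 5.48 to 5.85. All 6 arrays nonetheless had low Xist, 3.32 to 3.60, and clear Eif2s3y, a Y-linked gene, 8.77 to 9.08. The hepatocyte markers bore out the labelled tissue, with array means of 13.58 to 13.71. Erbb4 itself differed by -0.28 (standard error, SE, 0.24; limma, adjusted p = 0.772) with overlapping groups. Which exons its probe set covers was not looked at, so this does not check the labels.

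None of the 9 measured genes passed the test between ErbB4-/- and control liver. The test was limma's moderated test, adjusted by the Benjamini-Hochberg method over all 22180 genes at 0.05. It called 0 of 9, against 0.00451% of all genes, which is 1 gene. At an unadjusted p under 0.05 it picked 1 of 9, Hmox1, against 5.72% of all genes. The groups did not overlap for 1 of 9, again Hmox1, against 8.33% of all genes and 3.81% in the lower direction. With 9 genes, counts of 1 are near both backgrounds. Of the 9 genes 6 had a lower mean in ErbB4-/- liver, against 45.3% of all genes, and 3 a higher one. The median difference was -0.046, beside 0.015 over all genes. With 3 arrays a group, 0.10 is the smallest p an exact permutation test allows, and it was not used.

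**Figure D1:**
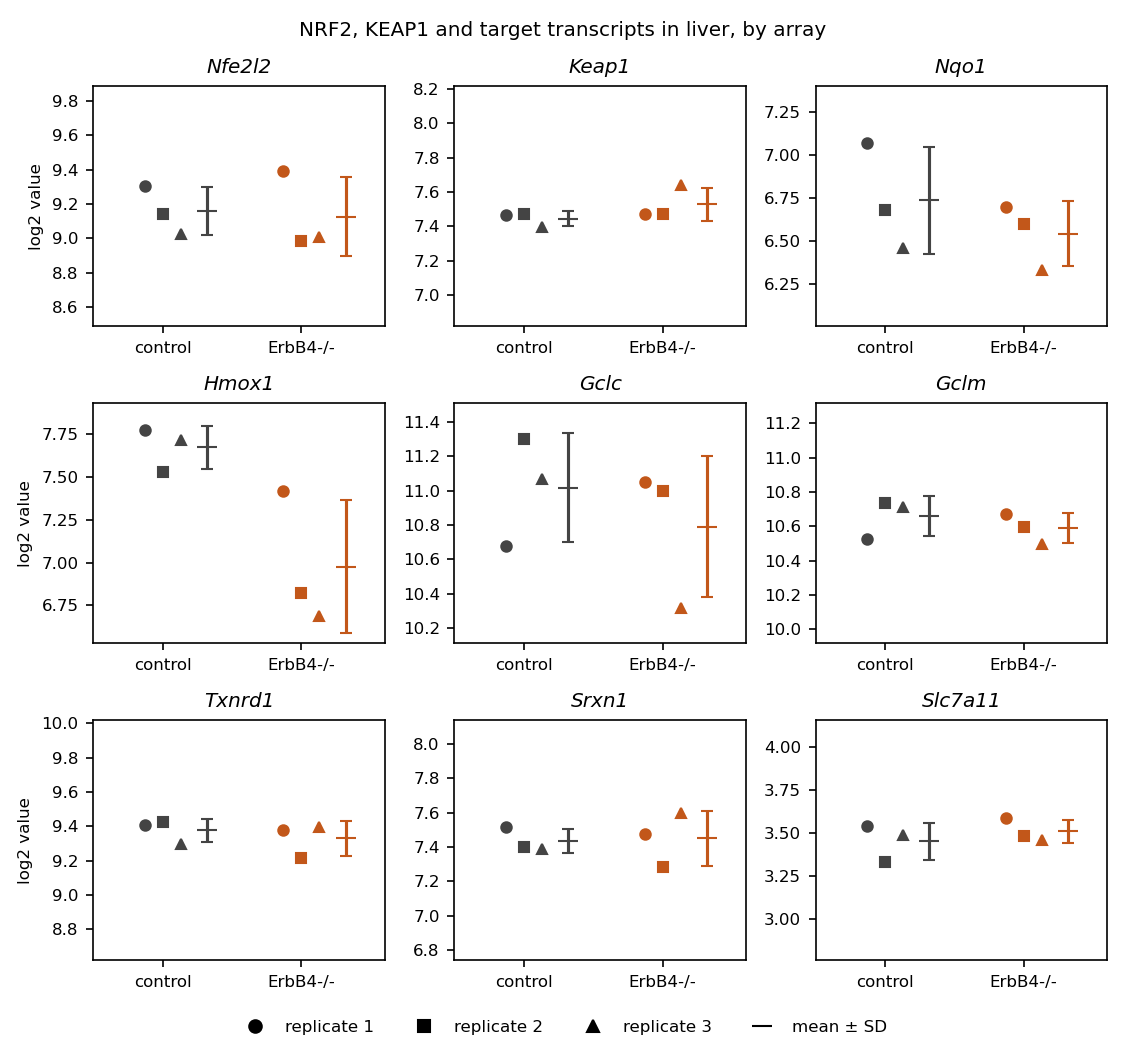
Log2 value of each of the 9 measured genes on the vertical axis, with the 3 control arrays in grey and the 3 ErbB4-/- arrays in orange, symbols for the replicate and a bar for the mean and SD of the group (n = 3). Every panel spans the same log2 range; Hmox1 is the gene whose 2 groups stay apart, and Gclc shows 1 low array in each group.

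The transcripts of both regulators overlapped between the groups. Nfe2l2 read 9.30, 9.14 and 9.03 on the control arrays and 9.39, 8.98 and 9.01 on the ErbB4-/- arrays, replicates 1 to 3 in that order here and below. The highest array was an ErbB4-/- one and so was the lowest, and the groups overlapped throughout. The means were 9.16 ± 0.14 and 9.13 ± 0.23 (SD, n = 3 each) and differed by -0.031 (SE 0.14; limma, adjusted p = 0.954). The 95% confidence interval ran from -0.37 to 0.31, that is from 0.77-fold to 1.24-fold. Leaving out single arrays turned the sign of the difference. It was 0.042 without control replicate 1, 0.041 without ErbB4-/- replicate 2 and 0.029 without ErbB4-/- replicate 3. Without ErbB4-/- replicate 1 it was -0.16 and the groups did not overlap, which fewer arrays make more likely.

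Keap1, the adaptor that marks NRF2 for breakdown, read 7.47, 7.47 and 7.40 in control and 7.47, 7.47 and 7.64 in ErbB4-/- liver. Apart from ErbB4-/- replicate 3, which was the highest, the arrays lay within 0.077 of each other. The difference was 0.084 (SE 0.066; limma, adjusted p = 0.768), with an interval from -0.082 to 0.25. It was 0.028 without ErbB4-/- replicate 3. On 3 arrays Keap1 had the same deposited value to the last of 6 decimals, as is the case between at least 2 arrays for 57.5% of all genes, and such repeats can make the spread between replicates look smaller than it is. A second, dimmer probe set of Keap1 differed by 0.11 in the same direction (SE 0.097), with equal values on 3 arrays as well.

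Both chains of glutamate-cysteine ligase, the rate-limiting enzyme of glutathione synthesis, had low values on the same 2 arrays. Gclc, the catalytic chain, read 10.68, 11.30 and 11.07 in control and 11.05, 11.00 and 10.32 in ErbB4-/- liver. One array of each group was low, control replicate 1 and ErbB4-/- replicate 3, and the other 4 lay between 11.00 and 11.30. The means were 11.02 ± 0.32 and 10.79 ± 0.41 and differed by -0.23 (SE 0.26; limma, adjusted p = 0.805), with an interval from -0.86 to 0.41. This is less than either group's own SD. Gclm, the modifier chain, read 10.53, 10.74 and 10.71 in control and 10.67, 10.60 and 10.50 in ErbB4-/- liver, with its lowest values on the same arrays. Its difference was -0.071 (SE 0.082; limma, adjusted p = 0.808), with an interval from -0.28 to 0.13.

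These 2 arrays are the ones that stood apart, and they held the 2 lowest values of Gclc. Without ErbB4-/- replicate 3 the difference of Gclc was 0.0089, and without control replicate 1 it was -0.40. Without both, the difference was -0.16 for Gclc (limma, adjusted p = 0.746) and -0.092 for Gclm (limma, adjusted p = 0.746). The groups then did not overlap for either gene. Fewer arrays make a lack of overlap more likely, and its share over all genes was not counted there. Gclc had a wider spread over the 6 arrays than 93.7% of all genes, with an SD of 0.35, whereas Gclm, with 0.10, exceeded 31.7%. The genes whose centred profile over the 6 arrays came nearest to that of Gclc were Tmem126a, at a root mean square distance of 0.061, Cyp3a25, a cytochrome P450 of the liver, at 0.062 and Cxadr, a junction protein, at 0.070. All 3 were lowest in ErbB4-/- replicate 3, and their group differences were -0.18, -0.14 and -0.22. They were picked for their likeness to Gclc on these same arrays, so this likeness is no further support.

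Slc7a11, the chain of the cystine importer that feeds glutathione synthesis, gave a dim signal. It read 3.54, 3.33 and 3.49 in control and 3.58, 3.48 and 3.46 in ErbB4-/- liver. The highest and lowest arrays lay 0.26 apart, and the groups overlapped. All values were below 3.95, the lower quartile of the gene means, so they may be background. The difference was 0.059 (SE 0.075; limma, adjusted p = 0.821), with an interval from -0.13 to 0.25, and 0.082 on a second, still dimmer probe set. The upper bound of the interval is 1.19-fold on this scale, and a larger change of a transcript near background would be understated.

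The reductases of the thioredoxin branch varied little, with SDs over the 6 arrays of 0.081 for Txnrd1 and 0.11 for Srxn1. Txnrd1, the cytosolic thioredoxin reductase, read 9.41, 9.42 and 9.30 in control and 9.38, 9.21 and 9.40 in ErbB4-/- liver, all within 0.21. The difference was -0.046 (SE 0.073; limma, adjusted p = 0.858), and the interval from -0.23 to 0.13 corresponds to 0.855-fold to 1.098-fold. Srxn1, sulfiredoxin, which repairs over-oxidised peroxiredoxins, read 7.52, 7.40 and 7.39 in control and 7.48, 7.28 and 7.60 in ErbB4-/- liver. Its highest and lowest values were both on ErbB4-/- arrays. The difference was 0.016 (SE 0.095; limma, adjusted p = 0.968), with an interval from -0.22 to 0.25.

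The immediate early genes, which include the AP-1 subunits Fos and Jun, were set beside Srxn1, the gene with the 2 TGANTCA matches. All 8 of their list had lower means in ErbB4-/- liver, with a median difference of -1.58, and 0 passed (limma; smallest adjusted p = 0.760). Their list mean ran from 9.18 to 10.33 in control and from 6.58 to 9.02 in ErbB4-/- liver, lowest in replicate 3. Without ErbB4-/- replicate 3 the median was -0.84, and with control replicate 1 left out as well -0.41. On ErbB4-/- replicate 3 Srxn1 had its highest value, 7.60, and Fos its lowest, 5.52 against 8.99 to 10.74 on the others. Among those others, Srxn1 was highest on control replicate 1, at 7.52, and lowest on ErbB4-/- replicate 2, at 7.28. The immediate early list mean was highest and lowest on the same 2 arrays, at 10.33 and 8.68. AP-1 protein was not measured, and a link between AP-1 and Srxn1 was not tested.

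Nqo1, the quinone reductase that is used widely as a readout of NRF2, read 7.07, 6.68 and 6.46 in control and 6.70, 6.60 and 6.33 in ErbB4-/- liver. Control replicate 1 was highest and ErbB4-/- replicate 3 lowest, and the other 4 arrays overlapped. The means were 6.74 ± 0.31 and 6.54 ± 0.19 and differed by -0.19 (SE 0.18; limma, adjusted p = 0.777), with an interval from -0.65 to 0.26. Without control replicate 1, the array with the low male-biased genes, the difference was -0.026, and with ErbB4-/- replicate 3 left out too it was 0.079.

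Hmox1, haem oxygenase, which opens the haem ring and is abundant in the phagocytes that clear red cells, had the widest spread and the largest difference of the 9 genes. It read 7.77, 7.53 and 7.71 in control and 7.42, 6.82 and 6.69 in ErbB4-/- liver. Every ErbB4-/- array lay below every control array, although replicate 1 missed the lowest control by 0.11 only. The means were 7.67 ± 0.13 and 6.98 ± 0.39 and differed by -0.70 (SE 0.20), 1.62-fold lower in ErbB4-/- liver, with an interval from -1.20 to -0.19. The unadjusted p was 0.016, and Hmox1 did not pass over all genes (limma, adjusted p = 0.760). The difference stayed between -0.92 and -0.55 when any 1 array was left out. It was -0.50 with control replicate 1 and ErbB4-/- replicate 3 both left out. Groups already apart stay apart when arrays are left out. The lack of overlap in these 7 cases is therefore no further support.

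**Figure D2:**
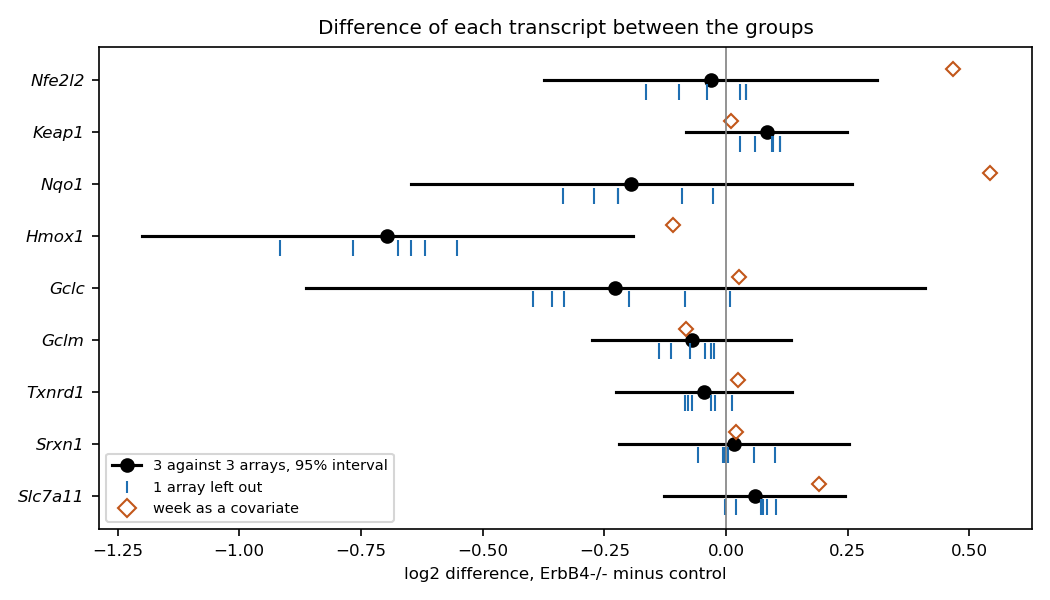
Log2 difference of each gene, ErbB4-/- minus control, on the horizontal axis, with the 95% confidence interval from all 6 arrays as a black line, the 6 fits with 1 array left out as blue ticks and the fit with the week as a covariate as an open diamond. Hmox1 is the single gene whose interval, from -1.20 to -0.19, does not reach 0, and its diamond is at -0.11.

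The week given in the treatment field moves with the groups. With it as a covariate the difference of Hmox1 was -0.11 (SE 0.35; limma, adjusted p = 0.994), and those of Nfe2l2 and Nqo1 turned to 0.47 (SE 0.18) and 0.54 (SE 0.16), both at an adjusted p of 0.994. The 2 label fields disagree on the week. Every ErbB4-/- week lies above every control week, so this fit separates week and group only by the weeks inside each group. Those weeks rise in step with the replicate number, so the week cannot be told apart from the order of the samples.

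Markers of several other liver cell types also had lower means in ErbB4-/- liver. In whole liver, fewer cells of a type and less RNA per cell cannot be told apart. All 12 Kupffer cell and macrophage markers had lower means in ErbB4-/- liver, with a median difference of -0.71, no overlap between the groups for 10 of them, against 3.81% of all genes in the lower direction, and 0 of 12 past the test (limma; smallest adjusted p = 0.760). Their list mean ran from 8.65 to 8.94 in control and from 7.40 to 8.27 in ErbB4-/- liver. Among the defining ones, Clec4f read 9.48, 9.55 and 9.59 against 9.46, 9.14 and 8.78, and Vsig4 9.40, 9.61 and 10.07 against 9.10, 8.54 and 7.80. The 8 endothelial markers had lower means too, with list means of 8.20 to 8.62 against 6.93 to 8.19, and 2 of the 8 did not overlap. Their median difference was -0.79, and -0.39 without ErbB4-/- replicate 3. All 8 neutrophil markers had lower means as well, with list means of 5.36 to 7.20 against 4.64 to 5.04, and 6 of the 8 did not overlap. By array, the neutrophil list means were 7.20, 5.36 and 6.92 in control and 4.64, 4.74 and 5.04 in ErbB4-/- liver. Their order was that of Hmox1 on the control arrays and the reverse of it on the ErbB4-/- arrays. The macrophage and endothelial lists had the order of Hmox1 on the ErbB4-/- arrays. Among the controls both were lowest on replicate 1, where Hmox1 was highest. In the endothelial and neutrophil lists 0 passed the test (limma). All 8 stellate cell markers had lower means, at a median difference of -0.28, and 3 of 4 B and plasma cell markers, at -0.61. The T and NK cell list had a median of -0.011 with 4 of 6 lower, and the cholangiocyte list -0.020 with 3 of 4 lower. The 6 hepatocyte markers all had lower means too, at a median difference of -0.027. Their list means overlapped, at 13.64 to 13.71 against 13.58 to 13.67. The part of these markers in the Hmox1 difference was not tested.

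The 3 genes whose centred profile over the 6 arrays was nearest to that of Hmox1, among genes at or above the median level, were Hpse, at a root mean square distance of 0.063, Cyba at 0.071 and Pip4k2a at 0.082. Hpse encodes heparanase, Cyba the small membrane chain of the NADPH oxidase that phagocytes use, and Pip4k2a a lipid kinase. Hpse read 7.22, 6.95 and 7.18 in control and 6.95, 6.42 and 6.12 in ErbB4-/- liver, Cyba 7.57, 7.26 and 7.64 against 7.26, 6.73 and 6.60. None of the 3 passed (limma, adjusted p = 0.760 for each). They were picked for their likeness to Hmox1 on these same arrays, so their values are no further support for its difference.

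**Figure D3:**
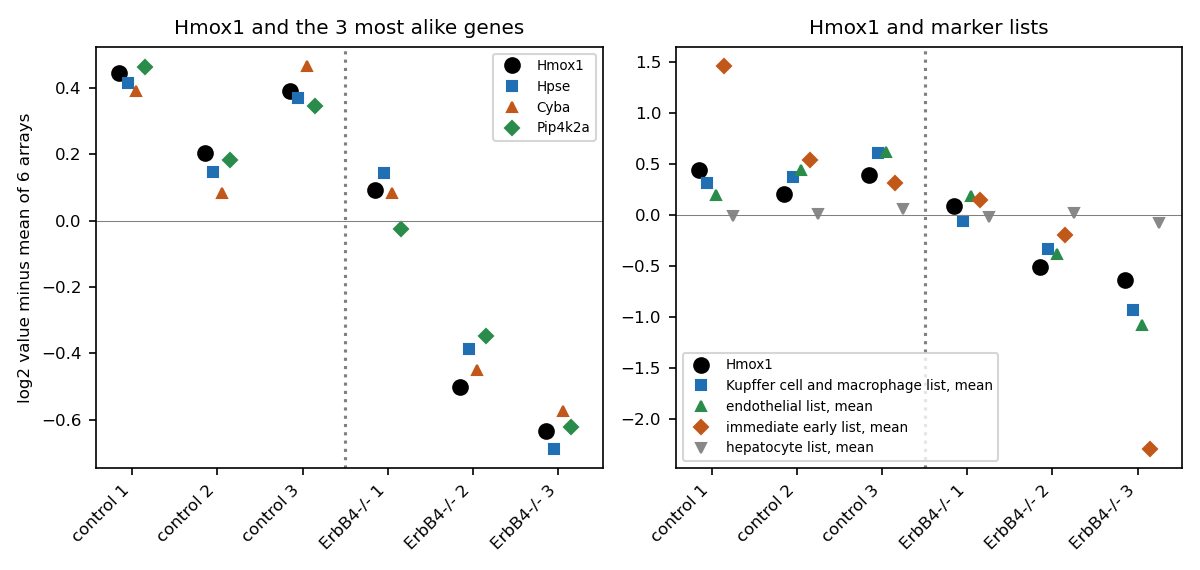
Log2 values of each of the 6 arrays after subtracting the mean over the arrays, for Hmox1 and the 3 most alike genes on the left and for Hmox1 and the means of 4 marker lists on the right. Hmox1, the macrophage list and the endothelial list are low in ErbB4-/- replicates 2 and 3, the immediate early list drops far lower in replicate 3, and the hepatocyte list stays near 0.

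Seen by array, the 9 genes did not share 1 order. ErbB4-/- replicate 3 was lowest for 4 genes and highest for 2, ErbB4-/- replicate 2 lowest for 3 and highest for 0, and control replicate 2 highest for 3 and lowest for 1. In ErbB4-/- replicate 1, 8 of 9 genes lay above their own mean over the arrays, against 2 of 9 in replicate 2 and 3 of 9 in replicate 3. The SD over the 6 arrays ran from 0.081 for Keap1 and Txnrd1 to 0.46 for Hmox1, where the median gene had 0.14.

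The rest of the pathway was read from 8 further lists, with 69 of 78 genes measured. Of these, 33 had a higher and 36 a lower mean in ErbB4-/- liver, and the median difference was -0.017. The test called 0 of 69 in either direction (limma; smallest adjusted p = 0.760). At an unadjusted p under 0.05 there were 4, against 5.72% of all genes, and 6 did not overlap between the groups, against 8.33% of all genes. Both counts are near the background.

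Regulators of NRF2 gave 4 higher and 5 lower of 9. Sqstm1, which encodes p62, a protein that draws KEAP1 into autophagy, read 10.44, 10.47 and 10.64 in control and 10.80, 10.68 and 10.64 in ErbB4-/- liver. The difference was 0.19 (SE 0.078). Mafg, a small MAF partner of NRF2, differed by 0.24 (SE 0.13) and by 0.11 without ErbB4-/- replicate 3, its highest array at 7.12.

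Glutathione synthesis and reduction gave 4 higher and 7 lower of 11. Glrx, glutaredoxin, which uses glutathione to reduce protein disulfides, read 9.43, 9.40 and 9.75 in control and 8.93, 9.13 and 9.12 in ErbB4-/- liver. The groups did not overlap, and the difference was -0.47 (SE 0.11). Cbs, which starts the making of cysteine from homocysteine, differed by -0.13 (SE 0.086), and by -0.055 without ErbB4-/- replicate 3.

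The 9 measured glutathione S-transferases, the largest group of NRF2 targets in liver, gave 3 higher and 6 lower. Gsta4, which conjugates products of lipid peroxidation, read 9.78, 9.79 and 9.72 in control and 10.09, 9.98 and 9.82 in ErbB4-/- liver without overlap and differed by 0.20 (SE 0.080). Mgst1, a membrane-bound transferase, differed by 0.18 (SE 0.10) with overlap.

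Of the 9 measured thioredoxin and peroxiredoxin genes 5 were higher and 4 lower. Txn2, the mitochondrial thioredoxin, read 7.96, 7.79 and 7.82 in control and 8.01, 8.04 and 8.21 in ErbB4-/- liver and differed by 0.22 (SE 0.080) with no overlap. Txnrd3 differed by 0.16 (SE 0.13) and by 0.036 without ErbB4-/- replicate 3. The differences of the 5 genes of NADPH supply lay between -0.12 for Pgd and 0.039 for Pgls, both enzymes of the pentose phosphate pathway that G6pdx opens. Without control replicate 1 that of Pgd was -0.20. Single arrays were far apart for Me1, malic enzyme, named here after its values were seen, which read 9.05, 10.66 and 9.93 in control and 10.05, 9.71 and 9.57 in ErbB4-/- liver. Control replicate 1 was its lowest array, and the difference was -0.10 (SE 0.41) with it and -0.52 without it.

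The 15 further NRF2 targets gave 10 higher and 5 lower. Osgin1, an oxidative stress response gene, read 9.08, 9.69 and 8.78 in control and 10.39, 9.92 and 9.15 in ErbB4-/- liver. Its groups overlapped, and the difference of 0.63 had an SE of 0.38. It was 0.97 without ErbB4-/- replicate 3. Cbr1, a carbonyl reductase, differed by -0.41 (SE 0.29), with control replicate 1 at 10.17 and the other 5 arrays between 9.02 and 9.21. Without control replicate 1 the difference was -0.082.

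Among enzymes that remove superoxide and hydrogen peroxide, Sod3, the secreted superoxide dismutase, read 6.72, 6.74 and 6.67 in control and 6.38, 6.06 and 5.87 in ErbB4-/- liver. The control arrays lay within 0.067 of each other and above every ErbB4-/- array, and the difference was -0.61 (SE 0.13). Sod2, the mitochondrial form, differed by 0.14 (SE 0.12) with overlap. Its difference was 0.045 without control replicate 1 and 0.054 without ErbB4-/- replicate 3.

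Haem and iron handling was the list with the lowest median, -0.25, with 6 of 7 genes lower. The median was -0.16 without control replicate 1, and -0.30 without ErbB4-/- replicate 3, where 7 of 7 were lower. Cd163, the macrophage receptor that takes up haemoglobin bound to haptoglobin and so brings haem to Hmox1, read 7.70, 7.45 and 7.89 in control and 6.47, 6.85 and 5.66 in ErbB4-/- liver. It is also 1 of the 12 macrophage markers above. The difference was -1.35 (SE 0.32) with no overlap, and -1.02 without ErbB4-/- replicate 3. Hpx, hemopexin, the plasma protein that binds free haem, differed by -0.25 (SE 0.10), and by -0.16 without control replicate 1. Each of the 16 genes named from these lists missed the threshold, with adjusted p between 0.760 and 0.873 (limma).

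**Figure D4:**
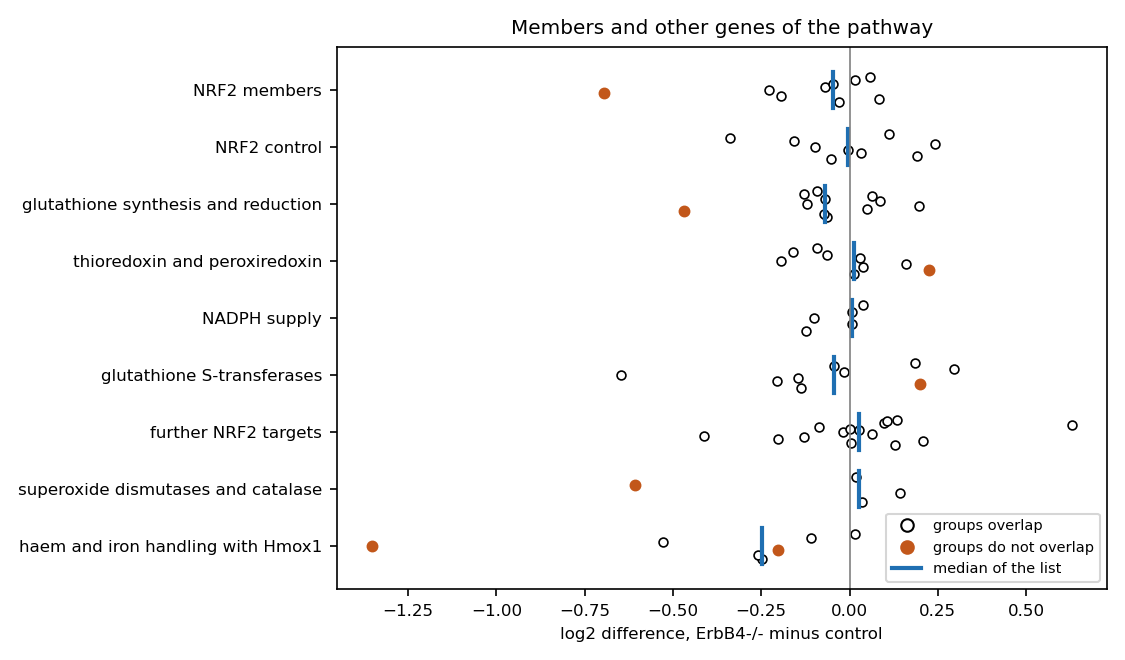
Log2 difference, ErbB4-/- minus control, for the 9 measured genes and the 8 further lists, 1 point per gene, with orange for genes whose groups do not overlap and a blue bar for the median of the list. Medians lie between -0.25, for haem and iron handling, and 0.027, for the further NRF2 targets.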

How the data were processed

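The authors deposited log2 expression values, 1 for each probe set on each array; their background correction, normalization and summarisation are not given in the sources used here, and the log base was read from their range, 1.74 to 14.4. No linear values or background signals were used. RNA was extracted with Trizol and labelled with biotin, per the labels' protocols. Of 41345 probe sets, 23521 name 1 gene, 1814 several, and 16010 are unnamed here. The probe set with the highest mean stood for each of 22180 genes; 0 symbols needed updating against RefSeq. limma 3.58.1 (lmFit, eBayes, R 4.3.3) was fitted on all 6 arrays with genotype as the only term and tested on simulated data. The median standard error was 0.10. Array medians and correlations between arrays, 0.983 to 0.994, were checked, and the number of arrays limits precision. The design text calls the mice biological replicates. The genes and lists were chosen with earlier results of these data known. Named beside the 9 genes are the 2 genes of each pathway list with the smallest unadjusted p and the 3 profiles nearest to the 2 widest-spread members; Fos, Jun, Clec4f, Vsig4, Xist and Eif2s3y were picked as markers. Alternatives were another normalization or centring, a filter, other probe set rules, priors, array weights, the replicate block, the week, left-out arrays and a threshold of 0.1. Figures used matplotlib 3.10.9.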

Additional observations from a re-analysis of the deposited data

How the results depend on the processing

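None of the 9 genes passed under any of the alternatives run, with adjusted p from 0.524 to 1.00 over 143 fits, and the count of members past the threshold was 0 throughout. Keap1, Hmox1 and Gclm kept their direction in all 16 settings each. Signs turned, always without a call, with array weights for Nfe2l2, at 0.015, and Srxn1, at -0.010, and with the week as a covariate for Nfe2l2, at 0.47, Nqo1, at 0.54, Gclc, at 0.027, and Txnrd1, at 0.024. Leaving out arrays, singly or, as chosen after seeing the data, control replicate 1 together with ErbB4-/- replicate 3, gave differences from -0.16 to 0.10 for Nfe2l2, -0.334 to 0.079 for Nqo1, -0.40 to 0.0089 for Gclc, -0.085 to 0.012 for Txnrd1, -0.057 to 0.10 for Srxn1 and -0.0021 to 0.127 for Slc7a11. With that pair out, Srxn1 was at -0.016. The median of the members, -0.046 over all 6 arrays, ran from -0.11 to 0.012 with 1 array left out and was 0.024 with the week, and each of these moves was smaller than the spread between replicates, 0.078. Members without overlap numbered 1 to 3 with 1 array left out, where fewer arrays make a lack of overlap more likely. The share over all genes was not counted in those settings. Gclc and Gclm joined Hmox1 without control replicate 1, alone or with ErbB4-/- replicate 3, to make 3, while Keap1 joined without control replicate 2, Txnrd1 without control replicate 3 and Nfe2l2 without ErbB4-/- replicate 1, to make 2 each. Over all genes the single call became 0 with any 1 array or the pair left out, with every row of the table tested, with the week and with the replicate block; beyond the fewer arrays and the larger number of tests the cause was not tested. Deviations from the group means correlated at -0.10, 0.034 and -0.050 for replicate numbers 1 to 3, and at -0.077 to 0.10 for unlike numbers. These values show no pairing by number, but they cannot settle whether the mice were paired. With the replicate block 0 genes passed. Values of the other pathway genes and marker lists without control replicate 1, ErbB4-/- replicate 3 or both were likewise added after seeing the data. The alternative pseudocount had no use on log2 values. Dim signal limits Slc7a11, which the filter at the median level removes.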
